A study of Mus musculus with 12 samples.

Results

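The comparison described here is the difference between Lama4-/- and wild-type (WT) brains that both hemispheres share. All 12 libraries of the series enter it: for each pool of mice the log2 CPM (counts scaled to library size) of the contralateral and the ipsilateral hemisphere were averaged, and 3 Lama4-/- pools were set against 3 WT pools across 15351 genes. The groups were Lama4-/- contralateral, Lama4-/- ipsilateral, WT contralateral and WT ipsilateral, with 3 libraries each, and each library holds brains of 2 pooled mice. All mice, of both genotypes, were 12-week-old males whose left middle cerebral artery was closed by a filament for 60 min and reopened for 24 h. The ipsilateral hemisphere therefore carries the stroke, and the contralateral one also comes from operated animals, so no group is free of surgery. Whether both libraries of a pool number come from the same mice is not stated. The labels give neither strain nor littermate status, and the deletion is written only as Lama4-/-, with no driver line. Hemispheres were taken whole without olfactory bulb and cerebellum, so each value mixes all brain cell types, and fewer cells of a type and less RNA per cell cannot be told apart.

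Lama4 encodes the alpha 4 chain of laminin, which endothelial cells lay down in the basement membrane, the sheet of matrix around brain vessels. Laminins bind integrins and dystroglycan on neighbouring endothelial cells, pericytes and astrocyte endfeet. Immediate early genes such as Fos, Arc and Nr4a1 are switched on within minutes by calcium and cAMP signals in active neurons, by growth factors and by stress, and their products drive later genes such as Bdnf. One route to their promoters is the transcription factor CREB, which binds the cAMP response element TGACGTCA or its half-site TGACG.

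The 4 promoter windows below are shown because these immediate early genes were among the 12 lower genes with the largest difference after Lama4, of those with an unadjusted p under 0.01 and no overlap between genotypes in either hemisphere, and carry copies of that element. They are RefSeq windows of the GRCm38.p6 assembly, from 250 bases before to 50 after the annotated start, printed 5′ to 3′ on the strand of the gene, and the capitals mark every TGACG or its reverse complement CGTCA. The Dusp1 window is chr17:26508423-26508722 (minus strand), that of Btg2 is chr1:134079106-134079405 (minus), that of Nr4a1 is chr15:101266596-101266895 (plus) and that of Npas4 is chr19:4989922-4990221 (minus).
Dusp1: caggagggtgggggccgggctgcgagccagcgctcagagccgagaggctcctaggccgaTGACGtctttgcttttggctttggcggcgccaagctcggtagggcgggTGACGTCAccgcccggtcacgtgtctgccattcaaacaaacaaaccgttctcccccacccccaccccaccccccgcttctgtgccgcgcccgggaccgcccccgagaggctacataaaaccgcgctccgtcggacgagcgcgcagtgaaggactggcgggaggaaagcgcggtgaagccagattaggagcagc
Btg2: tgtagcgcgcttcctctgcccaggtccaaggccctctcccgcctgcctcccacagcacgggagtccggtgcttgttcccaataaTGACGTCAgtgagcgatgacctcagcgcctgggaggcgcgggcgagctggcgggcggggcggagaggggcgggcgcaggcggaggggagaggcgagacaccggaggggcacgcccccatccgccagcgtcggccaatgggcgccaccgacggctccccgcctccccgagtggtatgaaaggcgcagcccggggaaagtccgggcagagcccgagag
Nr4a1: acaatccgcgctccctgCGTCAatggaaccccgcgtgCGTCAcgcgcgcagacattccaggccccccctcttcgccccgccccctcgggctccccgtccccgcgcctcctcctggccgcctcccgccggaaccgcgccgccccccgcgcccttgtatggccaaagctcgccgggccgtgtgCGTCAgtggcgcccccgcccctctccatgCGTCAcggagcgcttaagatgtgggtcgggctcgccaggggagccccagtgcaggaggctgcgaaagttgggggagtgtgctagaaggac
Npas4: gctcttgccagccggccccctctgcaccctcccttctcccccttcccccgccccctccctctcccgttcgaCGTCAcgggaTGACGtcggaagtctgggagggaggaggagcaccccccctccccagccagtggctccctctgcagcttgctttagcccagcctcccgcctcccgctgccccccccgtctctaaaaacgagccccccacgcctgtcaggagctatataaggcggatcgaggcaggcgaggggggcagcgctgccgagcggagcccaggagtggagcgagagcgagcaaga

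The full element TGACGTCA begins at base -143 from the annotated start of Dusp1 and at base -166 from that of Btg2. On either strand, the half-site TGACG was found in 7 of the 8 lower genes that had a window (87.5%) and in 0 of the 8 higher genes that had one. It was found in 13 of 19 immediate early genes (68.4%) and in 11 of 16 late activity-dependent genes (68.8%), against 32.8% of the 11947 tested genes with a window. The full element was in 2 of the 8 lower genes (25%) and in 3.24% of the tested genes, and each full element also counts as 2 overlapping half-sites. The CArG box, the site of serum response factor and the only other motif searched, was in 0 of the 8 lower genes and 1 of the 8 higher genes (12.5%). It was in 1 of 19 immediate early genes (5.26%) and 1 of 16 late genes (6.25%), against 1.59% of the tested genes. The lower and higher genes were picked by their difference in these data. Most of the lower genes also belong to the immediate early or late list, so the shares of these sets are not independent. These are matches of letters in a short window, and no binding was measured.

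Lama4 was nearly absent from all 6 knockout libraries. The gene (ENSMUSG00000019846, chromosome 10, 38965515 to 39110188, plus strand, mm10) had 0.337, 0.312 and 0.206 CPM in Lama4-/- contralateral libraries, against 10.8, 7.47 and 9.27 CPM in WT contralateral libraries. It had 0.797, 0.219 and 0.583 CPM in Lama4-/- ipsilateral libraries, against 14.8, 14.7 and 14.5 CPM in WT ipsilateral libraries. The genotypes were far apart in both hemispheres. Averaged over hemispheres, Lama4 fell by 4.78 on the log2 scale (SE 0.21, limma adjusted p = 2.27e-05), with -4.77 in contralateral and -4.80 in ipsilateral hemispheres.

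Only 1 other gene passed the test, Ddo, which encodes D-aspartate oxidase, the enzyme that breaks down D-aspartate. It lies 1.62 Mb from Lama4 on the same chromosome (ENSMUSG00000063428, chromosome 10, 40630011 to 40681847, plus strand, mm10). Ddo had 14.0, 12.0 and 12.6 CPM in Lama4-/- contralateral libraries, against 7.60, 5.92 and 5.83 CPM in WT contralateral libraries. In ipsilateral hemispheres it had 9.81, 12.9 and 12.3 CPM in Lama4-/- libraries and 5.47, 6.02 and 5.31 CPM in WT libraries. No Lama4-/- library overlapped a WT library. Ddo rose by 1.02 ± 0.087 (log2, SE, limma adjusted p = 0.00515), with 1.00 in contralateral and 1.04 in ipsilateral hemispheres. The difference between hemispheres was 0.04 ± 0.19 (limma adjusted p = 0.977). Without any 1 of the 3 Lama4-/- pools the limma adjusted p of Ddo was 0.052 to 0.0553, with 2 pools left in that genotype.

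**Figure D1:**
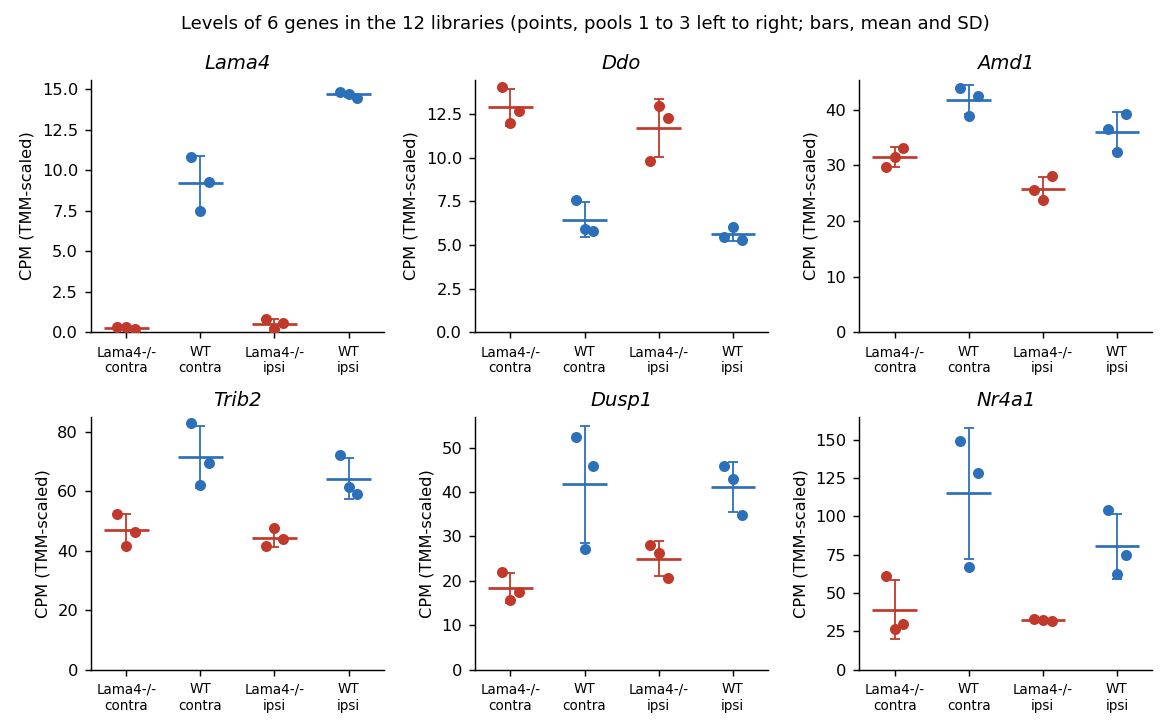
TMM-scaled CPM of 6 genes in each library, with Lama4-/- in red and WT in blue, and the mean and SD of 3 pools. Ddo lay between 9.81 and 14.0 CPM in Lama4-/- libraries and between 5.31 and 7.60 CPM in WT libraries; Lama4, Amd1, Trib2, Dusp1 and Nr4a1 were lower in Lama4-/- in both hemispheres.

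The 2 called genes are 0.013% of the genes tested, with 1 higher and 1 lower (0.00651% each). An unadjusted limma p under 0.05 was reached by 1041 genes (6.78%), 481 of them higher (3.13%) and 560 lower (3.65%). Of all genes, 10037 (65.4%) had the same direction in both hemispheres, 5273 higher and 4764 lower in Lama4-/-. In 204 genes (1.33%) the 3 Lama4-/- libraries did not overlap the 3 WT libraries in either hemisphere, with the same direction in both: 105 were higher (0.684%) and 99 lower (0.645%). A further 24 genes (0.156%) were without overlap in both hemispheres but in opposite directions. The contralateral hemispheres alone gave 2 called genes (0.013%), Lama4 and Ptgs2, and 1416 (9.22%) at an unadjusted p under 0.05. The ipsilateral hemispheres alone gave 1 (0.00651%), Lama4, and 543 (3.54%) at an unadjusted p under 0.05. For the difference between hemispheres limma called 0 genes, with 659 (4.29%) at an unadjusted p under 0.05, and no other tool was run on that difference. The smallest p of that difference belonged to Ccl9, a chemokine, with log2 differences between genotypes of -0.32 in contralateral and 1.07 in ipsilateral hemispheres (limma adjusted p = 0.324).

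**Figure D2:**
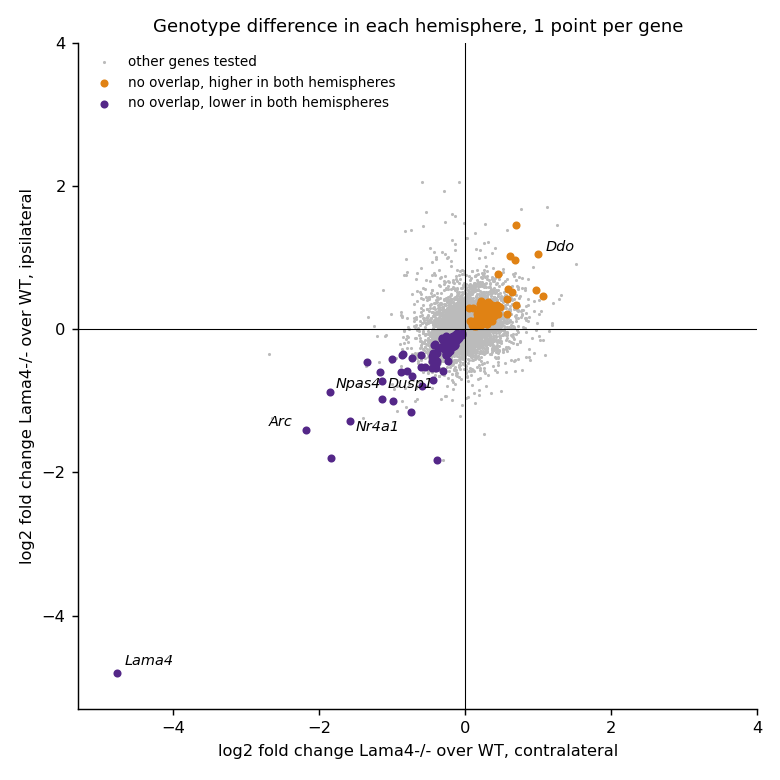
Log2 fold change of Lama4-/- over WT in contralateral (x) and ipsilateral (y) hemispheres for 15351 genes. Coloured points are the 204 genes whose libraries did not overlap in either hemisphere; Lama4 lies at -4.77 and -4.80, and Ddo at 1.00 and 1.04.

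Of the 12 lower genes described next, 8 belong to the lists of immediate early or late activity-dependent genes. Those lists were chosen with earlier results of these data known. An unadjusted p under 0.01 was reached by 139 genes (0.905%), 48 higher (0.313%) and 91 lower (0.593%). Among genes with a mean log2 CPM of at least 1, an unadjusted p under 0.01 and no overlap in either hemisphere, 38 were lower and 15 higher in Lama4-/-, not counting the called genes Lama4 and Ddo. Besides Lama4, the 12 lower genes with the largest differences under these conditions were Arc (-1.80), Nr4a1 (-1.43), Npas4 (-1.36), Bub1b (-0.995), Dusp1 (-0.93), Btg2 (-0.90), Fosb (-0.88), Gpr3 (-0.74), Cd36 (-0.71), Dusp4 (-0.69), Sik1 (-0.61) and Pcdha7 (-0.58), as log2 fold changes. None of them passed the adjusted threshold (limma adjusted p = 0.36 to 0.663). Pcdha7 belongs to a cluster of protocadherin genes that share exons, so its count is uncertain.

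Nr4a1, an orphan nuclear receptor of the immediate early class, had 61.4, 26.3 and 29.97 CPM in Lama4-/- contralateral libraries, against 150, 67.1 and 129 CPM in WT contralateral libraries. In ipsilateral hemispheres it had 33.1, 32.5 and 31.8 CPM in Lama4-/- libraries and 104, 62.6 and 74.6 CPM in WT libraries. The genotypes did not overlap in either hemisphere, but Lama4-/- pool 1 and WT pool 2 came close to each other in the contralateral one. The averaged difference was -1.43 ± 0.28 (log2, SE, limma adjusted p = 0.663).

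Dusp1, a phosphatase that switches off MAP kinases, had 22.1, 15.8 and 17.4 CPM in Lama4-/- contralateral libraries and 52.3, 27.1 and 45.9 CPM in WT contralateral libraries. It had 28.2, 26.3 and 20.6 CPM in Lama4-/- ipsilateral libraries and 45.8, 43.0 and 34.9 CPM in WT ipsilateral libraries. Again no library overlapped, and WT pool 2 was the lowest WT library on the contralateral side. Its difference was -0.93 ± 0.14 (limma adjusted p = 0.36). Btg2, an antiproliferative gene of the same class, differed by -1.34 in contralateral and -0.46 in ipsilateral hemispheres.

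Arc, which acts in synaptic plasticity, spread widely among WT libraries. It had 92.4, 32.5 and 48.0 CPM in Lama4-/- contralateral libraries and 417, 116 and 281 CPM in WT contralateral libraries. It had 114, 57.7 and 93.6 CPM in Lama4-/- ipsilateral libraries and 359, 158 and 203 CPM in WT ipsilateral libraries. WT pool 2 was the lowest WT library in both hemispheres. Npas4, a transcription factor induced by neuronal activity, had 9.01, 6.20 and 7.80 CPM in Lama4-/- contralateral libraries and 43.2, 12.2 and 39.9 CPM in WT contralateral libraries, with a difference of -1.86 there and -0.87 in ipsilateral hemispheres.

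Outside those lists, Bub1b, a spindle checkpoint kinase, averaged 2.78 ± 1.16 CPM in Lama4-/- contralateral and 5.32 ± 0.785 CPM in WT contralateral libraries (SD, n = 3). It averaged 2.72 ± 1.22 CPM in Lama4-/- ipsilateral and 5.19 ± 0.367 CPM in WT ipsilateral libraries (SD, n = 3). Cd36, a scavenger receptor for fatty acids, differed by -1.01 in contralateral and -0.42 in ipsilateral hemispheres. Trib2, a pseudokinase chosen here after its values were seen because it had the smallest p after Lama4 and Ddo, had 52.5, 41.5 and 46.5 CPM in Lama4-/- contralateral libraries and 82.9, 62.3 and 69.4 CPM in WT contralateral libraries. In ipsilateral hemispheres Trib2 had 41.5, 47.6 and 44.1 CPM in Lama4-/- libraries and 72.1, 61.5 and 59.1 CPM in WT libraries. Trib2 was without overlap in both, with -0.57 ± 0.083 (log2, SE, limma adjusted p = 0.31).

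The immediate early list as a whole was lower in Lama4-/-. Like all lists here, it was chosen with earlier results of these data known. Its counts beside the shares of all genes are therefore descriptive. Of its 23 members tested, 22 were lower, 20 of them in both hemispheres (31% of all genes were lower in both). Without overlap in either hemisphere were 6 members (0.645% of all genes were lower in this way): Btg2, Dusp1, Fosb, Nr4a1, Npas4 and Arc. An unadjusted p under 0.05 in the lower direction was reached by 17 members, against 3.65% of all genes, and 0 members passed the adjusted limma threshold. edgeR on pool sums also called 0 members. Of the 27 genes that DESeq2 called on pool sums, 6 were members, each of them lower: Btg2, Dusp1, Fosb, Fosl2, Npas4 and Nr4a1. The median log2 fold change was -0.82, with -0.90 in contralateral and -0.46 in ipsilateral hemispheres, beside 0.01 over all genes. The exceptions were Jund (0.05), which is expressed constantly, and Jun, Klf6, Atf3 and Maff, which lay near 0. Fos differed by -2.69 in contralateral and -0.34 in ipsilateral hemispheres, and this gap had an unadjusted limma p of 0.0267 (adjusted p = 0.876).

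By library, the mean log2 CPM of the immediate early list was 4.74, 3.95 and 4.12 in Lama4-/- contralateral libraries and 5.71, 4.73 and 5.43 in WT contralateral libraries. It was 5.07, 5.09 and 4.88 in Lama4-/- ipsilateral libraries and 5.67, 5.49 and 5.45 in WT ipsilateral libraries. The ipsilateral groups did not overlap. On the contralateral side WT pool 2 lay just below Lama4-/- pool 1. WT pool 2 was also the lowest contralateral WT library for each of Arc, Npas4, Nr4a1 and Dusp1. Members moved together by pool and are not independent of each other. Without WT pool 2 the list median was -0.94, and leaving out each pool in turn it ran from -0.94 to -0.69.

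**Figure D3:**
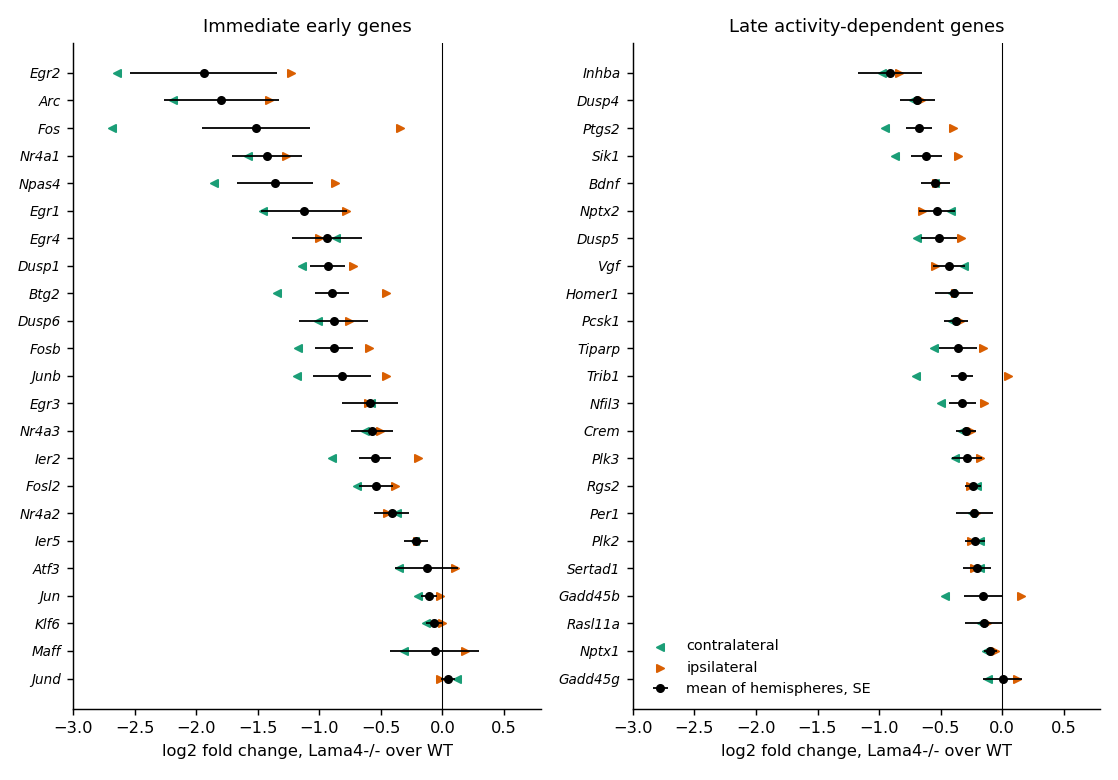
Log2 fold change of Lama4-/- over WT for each tested immediate early gene (left) and late activity-dependent gene (right), as the mean of both hemispheres with its SE (black) and in each hemisphere (triangles). In each list 22 of 23 members lie below 0 on average.

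Genes listed as late activity-dependent showed the same direction with smaller values. Every library was taken 24 h after reopening, so which genes respond early or late was not measured. Of 23 tested, 22 were lower, 20 in both hemispheres (31% of all genes) and 17 at an unadjusted p under 0.05 (3.65% of all genes). This list too was chosen with earlier results known, and its members are not independent of each other. These counts are therefore descriptive. At the adjusted threshold limma called 0 members and edgeR on pool sums 0. Of the 27 genes that DESeq2 called on pool sums, 5 were members. The list median was -0.33 (-0.41 contralateral, -0.26 ipsilateral). The 5 without overlap in either hemisphere (0.645% of all genes were lower in this way) were Dusp4, Sik1, Bdnf, Pcsk1 and Crem. Bdnf, the brain-derived neurotrophic factor, was named after its values were seen. It had 25.2, 21.1 and 29.6 CPM in Lama4-/- contralateral libraries and 43.2, 33.8 and 33.8 CPM in WT contralateral libraries. It had 35.1, 24.9 and 30.7 CPM in Lama4-/- ipsilateral libraries and 46.4, 38.5 and 45.8 CPM in WT ipsilateral libraries. The 2 hemispheres gave nearly equal differences for Bdnf, -0.55 and -0.53. Ptgs2, the inducible cyclooxygenase, had 13.5, 12.4 and 12.9 CPM in Lama4-/- contralateral libraries and 29.0, 22.9 and 23.6 CPM in WT contralateral libraries. In ipsilateral hemispheres Ptgs2 overlapped, because Lama4-/- pool 1 stood at 47.8 CPM, above 2 of the 3 WT libraries, and the averaged difference was -0.68 ± 0.11 (limma adjusted p = 0.36).

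Markers of cortical excitatory neurons were also lower on average in Lama4-/-. All 8 tested were lower on average, with a median of -0.17, and 6 were lower in both hemispheres (31% of all genes were). An unadjusted p under 0.05 was reached by 1, Neurod2 (3.65% of all genes were lower in this way). Averaged over hemispheres, the pool means of log2 CPM of these markers were 6.14 to 6.33 in Lama4-/- and 6.34 to 6.43 in WT pools, without overlap. Within each hemisphere the means overlapped. They were 6.172 to 6.377 in Lama4-/- contralateral and 6.342 to 6.405 in WT contralateral libraries. On the ipsilateral side they were 6.1 to 6.34 in Lama4-/- and 6.335 to 6.473 in WT libraries. The summed level of the list was 1706 to 1714 CPM in Lama4-/- contralateral and 1618 to 1740 CPM in WT contralateral libraries, and 1323 to 1527 CPM in Lama4-/- ipsilateral and 1499 to 1576 CPM in WT ipsilateral libraries; no member was at 0. Their part in the lower activity genes was not tested. Interneuron and striatal markers had medians of -0.02 and -0.01. Circadian clock genes, some of which neuronal activity also induces, had a median of -0.07, and their list means overlapped in both hemispheres. The 3 members with the smallest p were Per2 (-0.52), Cry1 (-0.32) and Clock (-0.22). None of them passed the adjusted limma threshold, and Per2 overlapped in contralateral hemispheres.

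Flow-responsive genes did not share a direction between hemispheres. In the list of shear stress and YAP targets 6 of 10 were lower and 0 were without overlap, with medians of -0.22 in contralateral and 0.13 in ipsilateral hemispheres. Klf2, an endothelial factor induced by flow, was at -0.49 ± 0.16 (limma adjusted p = 0.663). Ccn1, a secreted matrix protein, differed by -1.34 in contralateral and 0.18 in ipsilateral hemispheres.

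Besides Ddo, the higher genes that met the same conditions had smaller differences. The 12 with the largest were Klhl42 (0.39), Crlf2 (0.36), Dhrs7 (0.35), Pcdhga7 (0.35), Etfrf1 (0.33), Plvap (0.33), Pdgfrb (0.30), Gpr62 (0.30), Mtres1 (0.26), Lama2 (0.25), Ccdc91 (0.25) and Ptpmt1 (0.25), each with a limma adjusted p of 0.663. Pcdhga7, like Pcdha7, sits in a protocadherin cluster with shared exons. Of these 12 genes, 3 are vascular: Plvap forms the diaphragms of fenestrated endothelium, Pdgfrb is the receptor of pericytes, and Lama2 is the laminin alpha 2 chain found in astrocytic and mural basement membranes. Pdgfrb had 31.6, 36.5 and 37.1 CPM in Lama4-/- contralateral libraries and 28.9, 30.5 and 28.6 CPM in WT contralateral libraries. In ipsilateral hemispheres Pdgfrb had 48.1, 48.0 and 42.6 CPM in Lama4-/- libraries and 34.8, 42.6 and 31.7 CPM in WT libraries. The ipsilateral groups of Pdgfrb were separated only narrowly. Lama2 had 20.5, 21.4 and 23.5 CPM in Lama4-/- contralateral libraries and 18.9, 19.3 and 18.5 CPM in WT contralateral libraries. It had 19.6, 21.4 and 20.6 CPM in Lama4-/- ipsilateral libraries and 17.4, 17.9 and 14.8 CPM in WT ipsilateral libraries, again without overlap.

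Endothelial, pericyte and other basement membrane genes were mostly higher in Lama4-/-, the other laminin chains and the laminin receptors lay near the median of all genes, and smooth muscle markers were lower in 4 of 7 members, with a median of -0.10. No member of these lists passed the adjusted threshold in limma, edgeR or DESeq2. At an unadjusted limma p under 0.05 there were 3 endothelial and 2 pericyte markers, 2 other laminin chains, 2 other basement membrane genes and 1 receptor, all of them higher (3.13% of all genes were), and 0 smooth muscle markers. All 12 endothelial markers were higher on average, 7 in both hemispheres (34.3% of all genes were), with a median of 0.19 (0.06 contralateral, 0.29 ipsilateral), led by Cldn5 (0.24), the tight junction claudin, Emcn (0.31) and Eng (0.25). Of 9 pericyte markers 8 were higher, 6 in both hemispheres, with a median of 0.14 and Kcnj8, a potassium channel, at 0.52 ± 0.13. The other 10 laminin chains had a median of 0.04, with Lama5, the other main endothelial alpha chain, at 0.26 ± 0.099. Of 20 other basement membrane genes 18 were higher, 10 in both hemispheres, with a median of 0.10. The remaining higher members changed direction between hemispheres, and most of those were higher only in ipsilateral ones. Col4a4 was at 0.36 (0.10 contralateral, 0.61 ipsilateral), on 27 to 60 reads per library. Nid2 was at 0.24 (0.22 contralateral, 0.27 ipsilateral). The 14 laminin receptors had a median of 0.02, and Itgb4, the integrin beta 4 subunit, was at 0.29 ± 0.093.

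**Figure D4:**
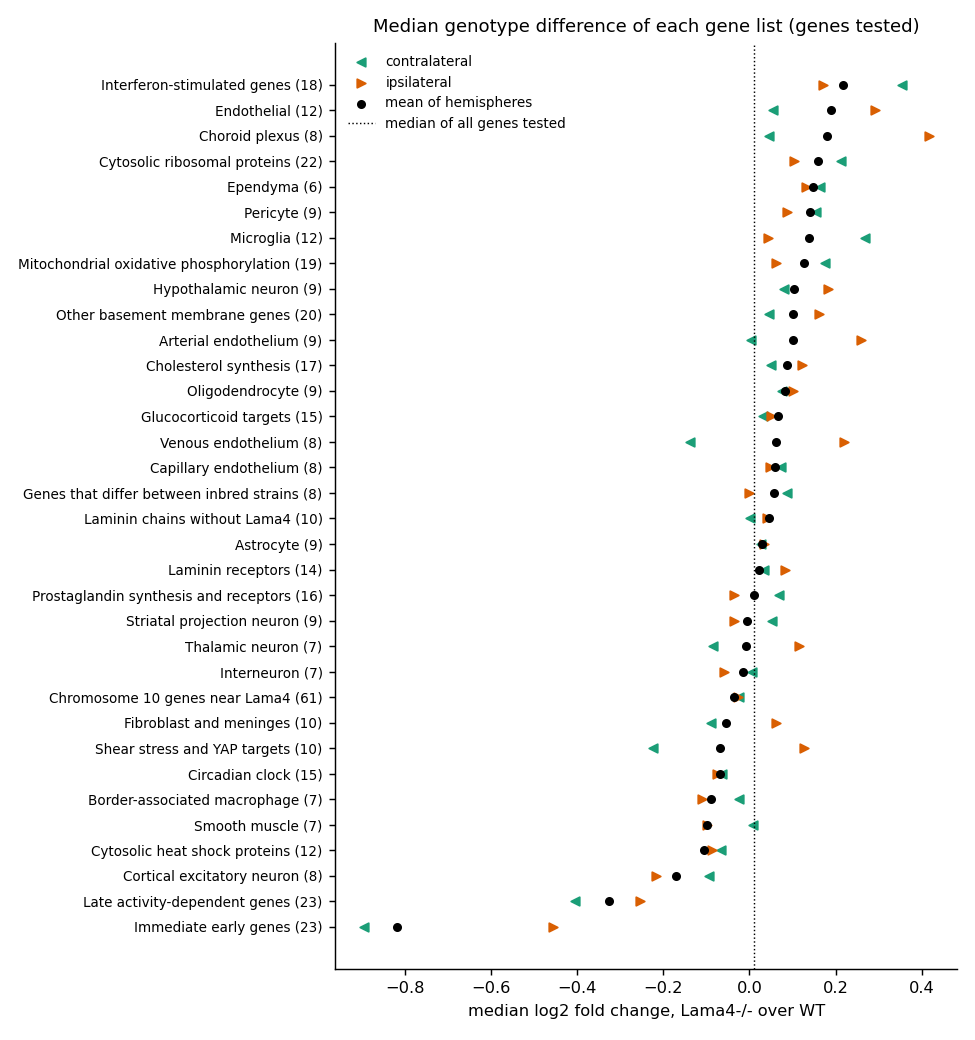
Median log2 fold change of Lama4-/- over WT for each gene list with at least 5 tested members (number tested in brackets), as the mean of hemispheres (black) and in each hemisphere (triangles). The immediate early list is lowest at -0.82, and the interferon-stimulated list is highest at 0.22.

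Interferon-stimulated genes were higher in 17 of 18 members, 12 in both hemispheres (34.3% of all genes), with a median of 0.22. No member was without overlap in both hemispheres. Irf7, a master factor of the interferon response, was at 0.49 ± 0.14. It differed by 0.71 in contralateral and 0.27 in ipsilateral hemispheres, and its libraries overlapped in the latter. Choroid plexus markers were higher on average in 7 of 8 members, but not all of these were higher in both hemispheres. Ttr (transthyretin) was at 0.38, Aqp1 at 0.55 and Folr1 at 0.47 (0.18 contralateral, 0.77 ipsilateral). Their summed level was 584.8 to 885.9 CPM in Lama4-/- contralateral and 539.1 to 680 CPM in WT contralateral libraries, and 581.7 to 801.9 CPM in Lama4-/- ipsilateral and 420.5 to 652.2 CPM in WT ipsilateral libraries, so the groups overlapped in both hemispheres. Microglial markers were higher in 11 of 12 members with a median of 0.14, but their summed levels overlapped in both hemispheres. These were 380.8 to 472.2 CPM in Lama4-/- contralateral and 350.8 to 417.2 CPM in WT contralateral libraries. On the ipsilateral side they were 527.7 to 556.5 CPM in Lama4-/- and 511.1 to 544.9 CPM in WT libraries. Among astrocyte markers Aqp4, the water channel of endfeet at the vessel wall, was lower without overlap, at -0.17 ± 0.065, while the list median was 0.03. Hcrtr2, an orexin receptor in the hypothalamic list, was also without overlap, at -0.43 ± 0.10. The limma adjusted p was 0.663 for Irf7, Ttr, Aqp1, Folr1, Aqp4 and Hcrtr2.

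Ribosomal protein and respiratory chain genes were higher in every member, by small amounts. All 22 cytosolic ribosomal protein genes were higher in both hemispheres (34.3% of all genes were), with a median of 0.16. An unadjusted p under 0.05 was reached by 9 of them (3.13% of all genes were higher in this way). All 19 genes of oxidative phosphorylation were higher in both hemispheres, with a median of 0.13 and 4 at an unadjusted p under 0.05. Without overlap in either hemisphere were 2, Cox5b and Ndufa1 (0.684% of all genes were higher in this way). Members of both lists have short transcripts, with median lengths of 1040 and 1116 nt, against 2965 nt for the immediate early list and 2931 nt for the late list.

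Transcript length moved with the genotype difference across all genes. The median log2 fold change was 0.08 among the genes with the shortest transcripts (325 to 2249 nt) and -0.07 among those with the longest (from 4849 nt), when genes were split into 4 equal bins of length. Of the genes without overlap, 52 were higher and 6 lower in the shortest bin, and 8 were higher and 45 lower in the longest. The mean log2 CPM of the shortest bin minus that of the longest was -1.92, -1.77 and -1.97 in Lama4-/- pools and -2.11, -1.96 and -2.02 in WT pools, which overlapped narrowly. The part of length in the gene differences was not tested.

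**Figure D5:**
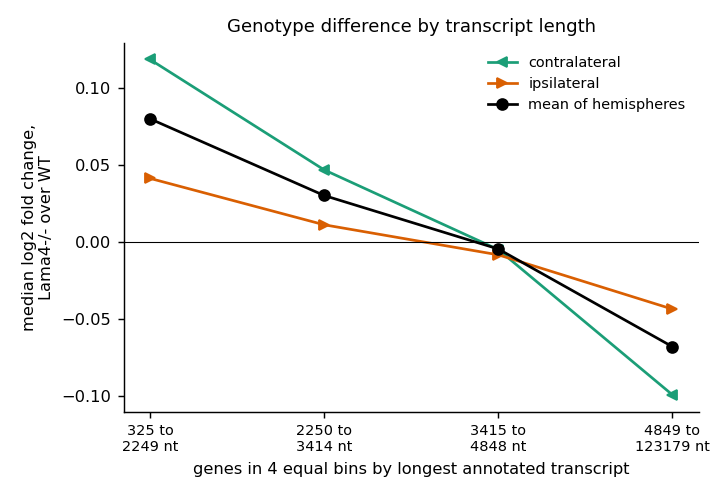
Median log2 fold change of Lama4-/- over WT in 4 bins of the tested genes by length of the longest annotated transcript, in each hemisphere and averaged. The averaged median runs from 0.08 in the shortest bin to -0.07 in the longest.

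Around Lama4 itself, 2 of 17 tested genes within 2 Mb were without overlap in both hemispheres (11.8%), Ddo and Amd1, against 1.33% of all genes. Within 5 Mb there were 5 of 53 (9.43%), and Col10a1 (-0.95), Sec63 (-0.15) and Mtres1 (0.26) joined them. The value of Col10a1 rests on few reads, 5 to 13 in Lama4-/- libraries and 11 to 30 in WT libraries. Within 10 Mb there were still 5, of 79 (6.33%). The median absolute log2 fold change was 0.11 within 2 Mb, 0.069 within 5 Mb and 0.073 within 10 Mb, beside 0.081 over all genes. Amd1, an enzyme of polyamine synthesis with near-identical copies elsewhere, had 29.7, 31.6 and 33.2 CPM in Lama4-/- contralateral libraries and 44.0, 39.0 and 42.4 CPM in WT contralateral libraries. In ipsilateral hemispheres Amd1 had 25.6, 23.9 and 28.0 CPM in Lama4-/- libraries and 36.6, 32.4 and 39.3 CPM in WT libraries. Amd1 was lower without overlap, at -0.44 ± 0.074 (limma adjusted p = 0.394).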

How the data were processed

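RNA-seq of 12 brain hemisphere libraries gave whole-number counts per gene, deposited without normalization. Per the submitters' processing notes, reads were handled on build mm10 with STAR 2.6.0 and featureCounts 1.6.4, beside bcl2fastq, FastQC 0.72 and DESeq2. No source used here gives the annotation or strand setting, and reads of overlapping or antisense genes may be mixed. The labels' protocols name a single-cell 3′ kit, which does not match 1 column per bulk library and could not be settled. The deposited normalized sheets, scaled apart for each hemisphere, were not used.

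Totals ran from 27537167 to 44113824 counts per library. Replicates correlated at r = 0.990 to 0.996 and differed by more than sampling noise, so none was a duplicate. Counts were scaled by TMM (edgeR 4.0.16) over 12 libraries, filtered with filterByExpr and turned into log2 CPM with a prior count of 2. Both hemispheres of a pool were averaged. Contralateral and ipsilateral libraries of the same pool number were taken as paired, since their deviations from the group means correlated at r = 0.109 to 0.337 in all 6 pools. limma 3.58.1 in R 4.3.3 (trend, robust) tested 3 pools against 3, with Benjamini-Hochberg adjustment over 15351 genes and a call at an adjusted p under 0.05. The p-values measure the spread between pools. The same fit was run within each hemisphere and on the difference between hemispheres. The code was tested on simulated data.

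Named genes were Lama4, the called genes, the 12 higher and 12 lower genes with the largest difference among those past the conditions given in the text, and the 3 members of each list with the smallest p; Trib2, Bdnf, Fos, Jund, Jun, Klf6, Atf3, Maff, Pcsk1, Crem, Ndufa1, Fosl2, Sec63 and Ccl9 were named after their values were seen. Members and the 39 lists were chosen with earlier results of these data known; 484 of 489 list symbols had an entry. Single-gene results of 2 genes named by the rule are not reported here. Positions are from GENCODE M21. Alternatives were count models (edgeR, DESeq2 1.42.0), voom, other scalings, prior counts and filters, a replicate block and leaving out each pool.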

Additional observations from a re-analysis of the deposited data

How the results depend on the processing

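Lama4 was called under all 18 alternatives run (log2 -5.01 to -4.52), and Ddo under 15 (0.97 to 1.07); Ddo missed the threshold without Lama4-/- replicate 1, 2 or 3 (limma adjusted p = 0.052, 0.0528 and 0.0553). The 2 called genes became 27 with DESeq2 on pool sums (5 higher, 22 lower, 25 with the same direction in both hemispheres) and 4 (3 lower, 4 with the same direction) both with edgeR on 12 libraries and with voom and a pool random effect, where Amd1 and Trib2 joined. Leaving out 1 pool gave 1 to 7 called genes (0 to 2 higher, 1 to 5 lower, 1 to 7 with the same direction), with 7 without WT replicate 2 (Btg2, Dusp1, Chaf1a, Npas4 and Efhd2 beside Lama4 and Ddo). Genes without overlap numbered 173 higher with library totals only; with 1 pool left out they were 307 to 1514 (177 to 756 higher, 130 to 758 lower), since fewer libraries separate more easily. Contralateral calls were 1 with no low-count filter and 1 to 9 with 1 pool left out, ipsilateral calls 0 to 7, and calls of the difference between hemispheres 0.

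Same-numbered pools of different genotype correlated at -0.0861, 0.297 and 0.225. Whether the shared pool numbers pair the genotypes could not be settled, and the main fit did not use them as a block. With these numbers as a replicate block, 22 genes were called (21 lower, 22 with the same direction), 100 in contralateral and 4 in ipsilateral hemispheres, and 5 for the difference between hemispheres.

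The list medians with 1 pool left out ran from -0.94 to -0.69 for immediate early genes and from -0.42 to -0.26 for late activity-dependent genes; ribosomal protein genes had 0.10 to 0.20 and oxidative phosphorylation 0.066 to 0.18 over all alternatives. Of the single-gene results, 2498 kept their direction and side of the threshold, 37 newly passed it, 3 no longer passed it (Ddo, above) and 9 reversed. The reversed ones, none of them called in any setting, changed sign with 1 pool left out: over these fits Slc17a6 ran from -0.12 to 0.01, Rgs16 from -0.17 to 0.038, Ccr2 from -2e-04 to 0.64, Mt1 from -0.050 to 0.49, Mt2 from -0.024 to 0.61 and Gadd45g from -0.14 to 0.19. Where not stated, the cause was not tested. With 3 pools per genotype, small differences could not be separated from the spread between pools.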
